A study of Homo sapiens with 12 samples.

Results

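DNA replication and nucleotide supply genes were followed on 12 bead arrays of total RNA from U937, an established human line of myeloid cells. The set holds 56 genes that load and fire replication origins, copy DNA or supply its building blocks, and its members were taken by gene symbol, as every probe annotated to one of them. Cells exposed for 24 h to MC2494, a compound that the series title calls a SirTi and that is studied as a sirtuin inhibitor, or for 24 h to EX527, a known inhibitor of the deacetylase SIRT1, were set against control cells, with 4 arrays in each of the 3 groups. Neither the dose of each compound nor what the control cells received is stated in the labels, and nothing there tells whether a group's arrays are separate cultures, so each p-value measures a spread among arrays that could be technical only. Of 24526 probes on the array, 74 were annotated to 55 of the 56 members, and 67 of these were detected well enough to test, which left 53 members among 9956 genes tested. POLD2 had no named probe in the annotation used here, and GINS1 and POLD3 were detected on none of the 12 arrays. The probes that stand for the 53 measured members were each detected on all 12 arrays, so no member entered through a single group.

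As background, a replication origin is first marked by the origin recognition complex, on which CDC6 and CDT1 load the MCM2-7 ring in G1 phase, a step called licensing that geminin blocks later in the cycle. In S phase the kinase CDC7 with DBF4 helps CDC45 and the GINS complex join the MCM ring and turn it into an active helicase, after which primase, the polymerases and the PCNA clamp copy the template. Ribonucleotide reductase and the thymidylate enzymes supply the deoxynucleotides. Many of these genes are known targets of the E2F transcription factors, which the retinoblastoma protein and its relatives hold back outside S phase.

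Promoter sequences of 6 members are shown as examples of windows with and without an E2F match, E2F binding being the best known feature that such genes share. They were picked with their matches known, and their split between genes that fell and genes that rose does not hold across the set. The windows run from 250 bases before to 50 after the annotated start, on the gene's own strand, from RefSeq on GRCh38.p14. Capitals mark matches to the E2F consensus TTTNNCGC, where each N is C or G, read on both strands with overlaps allowed. MCM2 (chr3:127598161-127598460, plus strand), MCM6 (chr2:135876394-135876693, minus strand) and GINS2 (chr16:85688905-85689204, minus strand) fell with both compounds, DUT (chr15:48331947-48332246, plus strand, 1 of its 4 windows) fell with MC2494, and ORC4 (chr2:148021502-148021801, minus strand, 1 of its 2 windows) and RFC1 (chr4:39366313-39366612, minus strand) rose with both.
MCM2: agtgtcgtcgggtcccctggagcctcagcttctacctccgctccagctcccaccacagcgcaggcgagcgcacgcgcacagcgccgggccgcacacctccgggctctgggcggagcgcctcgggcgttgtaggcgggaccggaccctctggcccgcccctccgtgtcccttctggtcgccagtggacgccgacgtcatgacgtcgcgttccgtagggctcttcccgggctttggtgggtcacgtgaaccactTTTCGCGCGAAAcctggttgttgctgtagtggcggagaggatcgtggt
MCM6: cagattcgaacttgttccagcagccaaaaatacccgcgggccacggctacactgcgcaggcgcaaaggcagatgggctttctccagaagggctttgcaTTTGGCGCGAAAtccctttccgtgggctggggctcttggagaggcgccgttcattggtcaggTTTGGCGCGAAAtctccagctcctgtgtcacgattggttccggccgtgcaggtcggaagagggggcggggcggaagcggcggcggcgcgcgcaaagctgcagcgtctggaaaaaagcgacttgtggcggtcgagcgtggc
GINS2: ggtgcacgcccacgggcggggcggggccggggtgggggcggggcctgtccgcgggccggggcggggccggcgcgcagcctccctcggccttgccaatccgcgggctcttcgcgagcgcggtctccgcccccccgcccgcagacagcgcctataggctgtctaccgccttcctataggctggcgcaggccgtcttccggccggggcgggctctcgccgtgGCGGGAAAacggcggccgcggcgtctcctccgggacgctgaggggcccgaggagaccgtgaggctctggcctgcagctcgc
DUT: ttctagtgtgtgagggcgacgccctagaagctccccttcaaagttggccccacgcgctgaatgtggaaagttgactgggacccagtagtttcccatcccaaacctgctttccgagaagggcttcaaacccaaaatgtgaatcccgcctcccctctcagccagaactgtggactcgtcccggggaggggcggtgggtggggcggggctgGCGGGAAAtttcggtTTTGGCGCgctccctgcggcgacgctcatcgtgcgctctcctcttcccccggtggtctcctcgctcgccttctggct
ORC4: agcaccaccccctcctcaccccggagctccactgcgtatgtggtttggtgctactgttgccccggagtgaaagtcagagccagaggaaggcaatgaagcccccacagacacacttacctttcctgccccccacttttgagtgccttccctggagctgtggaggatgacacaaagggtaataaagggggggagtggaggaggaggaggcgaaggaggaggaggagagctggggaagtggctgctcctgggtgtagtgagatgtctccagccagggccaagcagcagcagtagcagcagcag
RFC1: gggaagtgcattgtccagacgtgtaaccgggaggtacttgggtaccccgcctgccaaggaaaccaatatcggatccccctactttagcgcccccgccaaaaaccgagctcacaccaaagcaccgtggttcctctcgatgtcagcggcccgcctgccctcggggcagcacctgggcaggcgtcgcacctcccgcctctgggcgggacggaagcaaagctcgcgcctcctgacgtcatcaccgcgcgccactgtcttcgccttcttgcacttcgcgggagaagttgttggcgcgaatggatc
Among the members with the largest falls in MC2494, the windows of RRM2, TK1, ORC1 and CDC45 held no match, the other DUT windows held none, and ORC3, which rose with both compounds, held 1. The MCM2 and MCM6 matches overlap in pairs, since TTTNNCGC read on one strand runs into the same letters on the other. A window was at hand for 50 members, and 25 of these genes (50%) held at least 1 E2F match, against 1090 of 27305 genes with a window (3.99%). Of the members that were lower in MC2494 against control, 22 of 39 with a window held a match (56.4%), as did 2 of 5 that were higher and 0 of 4 that were not called. For EX527 the shares were 14 of 25 lower members (56%), 4 of 11 higher (36.4%) and 6 of 12 not called (50%). The CCAAT box, the letters CCAAT on either strand, was held by 29 of 50 members (58%) and by 39.7% of all genes with a window. These shares are counts of letters in fixed windows and were not matched for base composition.

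Across the whole series, mean raw signal was lower in MC2494, at 662.8 ± 31, than in control arrays at 779.3 ± 14.5 (SD, n = 4 arrays each). That difference had p = 0.0286 in an exact 2-sided permutation test, the smallest value possible with 4 against 4 arrays. EX527 arrays averaged 736.2 ± 32.3. Between 12231 and 13030 probes were detected per array, with log2 signals correlating at 0.997 to 0.998 within groups and 0.976 to 0.992 between them. Normalization gave all arrays one distribution, so each change below is relative to the other genes. The arrays carried the myeloid identity that the labels name: 7 of 9 myeloid markers with a probe were detected on all 12 arrays (MPO on none), with summed signals of 10020 to 11200 in MC2494, 7477 to 8126 in EX527 and 9471 to 9948 in control. Lymphocyte markers were detected on no array for 6 of 9, with CD79A detected on all, and their summed signal was 442 to 492 in MC2494, 471.5 to 532 in EX527 and 945.4 to 1159 in control. Erythroid and megakaryocyte markers were detected on no array for 5 of 8 and summed to 212.9 to 231.9, 231.8 to 259.4 and 247.3 to 280.2 in MC2494, EX527 and control, and epithelial and fibroblast markers, on no array for 9 of 10, summed to 259.4 to 271.4, 267.3 to 280.1 and 266.3 to 272.8. These sums are background-corrected signals with the offset of 16 included, taken before the arrays were scaled to each other. For the lists that were mostly undetected they hold much offset and background. The part of these markers in the results below was not tested.

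With MC2494 the machinery of DNA replication was lower almost throughout. Of 53 measured members, 44 were lower than in control cells, 5 were higher and 4 did not pass (limma, adjusted p under 0.05 over all 9956 genes), where 35% of all genes tested were lower, 37.5% higher and 72.5% called in either direction. Members were chosen with earlier results of these data known, so counts set beside these shares describe the list and do not test it. At least 2-fold lower were 31 members, against 5.8% of all genes, and 1, ORC4, was at least 2-fold higher, against 6.71%. These fold counts depended on the background step. With no background correction ORC4 was at 0.69, and CDC6, PRIM2, CHAF1A and RFC2 at -0.56, -0.61, -0.94 and -0.98, all short of 2-fold. The median log2 change of the measured members was -1.11, against 0.01 over all genes, and it ran from -2.32 for RRM2 to 1.09 for ORC4. The 4 MC2494 values and the 4 control values did not overlap for 47 of 53 members, against 65.7% of all genes. The calls for ORC5 and MCM8 as higher were the least secure. ORC5 was not called without MC2494 array 2 (0.13), MC2494 array 3 (0.11), MC2494 array 4 (0.12), control array 1 (0.12), control array 3 (0.10) or control array 4 (0.12), and MCM8 not without MC2494 array 1 (0.12), MC2494 array 2 (0.18), control array 1 (0.16) or control array 3 (0.16). SLBP passed as lower without MC2494 array 2 (-0.44) or control array 3 (-0.42), and ORC6 as higher without MC2494 array 4 (0.14). In RNA from whole cultures, fewer cells in S phase and less message per cell cannot be told apart.

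EX527 gave smaller and mixed changes. Of the same 53 members, 29 were lower than in control, 11 were higher and 13 did not pass (limma), where 31% of all genes were lower, 25.9% higher and 56.8% called in either direction. The falls among the members exceeded their share over all genes, and the rises did not. No member reached a 2-fold change in either direction, against 0.462% of all genes that were at least 2-fold lower and 2.08% that were at least 2-fold higher. The median log2 change was -0.19, against -0.04 over all genes, between -0.75 for MCM2 and 0.79 for RFC1. The EX527 and control values did not overlap for 38 members, against 51.6% of all genes. The smallest calls depended on single arrays. MCM3 was not called without EX527 array 1 (-0.20), EX527 array 2 (-0.22) or control array 3 (-0.16), and MCM6 not without EX527 array 2 (-0.14), EX527 array 4 (-0.15), control array 1 (-0.15), control array 3 (-0.15) or control array 4 (-0.15). MCM10 was not called without EX527 array 1 (-0.14), EX527 array 4 (-0.17), control array 3 (-0.16) or control array 4 (-0.17), RPA2 not without EX527 array 1 (-0.15), EX527 array 4 (-0.15), control array 2 (-0.15) or control array 4 (-0.16), and TYMS not without control array 1 (-0.15) or control array 3 (-0.16). Among the rises, ORC2 was not called without EX527 array 4 (0.14) or control array 2 (0.15), ORC5 not without EX527 array 1 (0.11), EX527 array 3 (0.14), EX527 array 4 (0.12), control array 1 (0.13), control array 3 (0.11) or control array 4 (0.13), and ORC6 not without control array 3 (0.13). GMNN passed as lower without MC2494 array 2 (-0.27), MC2494 array 3 (-0.27) or EX527 array 2 (-0.34), and POLD1 without MC2494 array 1 (-0.17), MC2494 array 2 (-0.17) or control array 2 (-0.23). With median scaling, 7 members not called here passed as lower in EX527, at -0.33 for GMNN, -0.27 for CDC45, -0.25 for POLD1, -0.20 for POLE2, -0.28 for PCNA, -0.17 for RRM2 and -0.21 for RRM1.

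**Figure D1:**
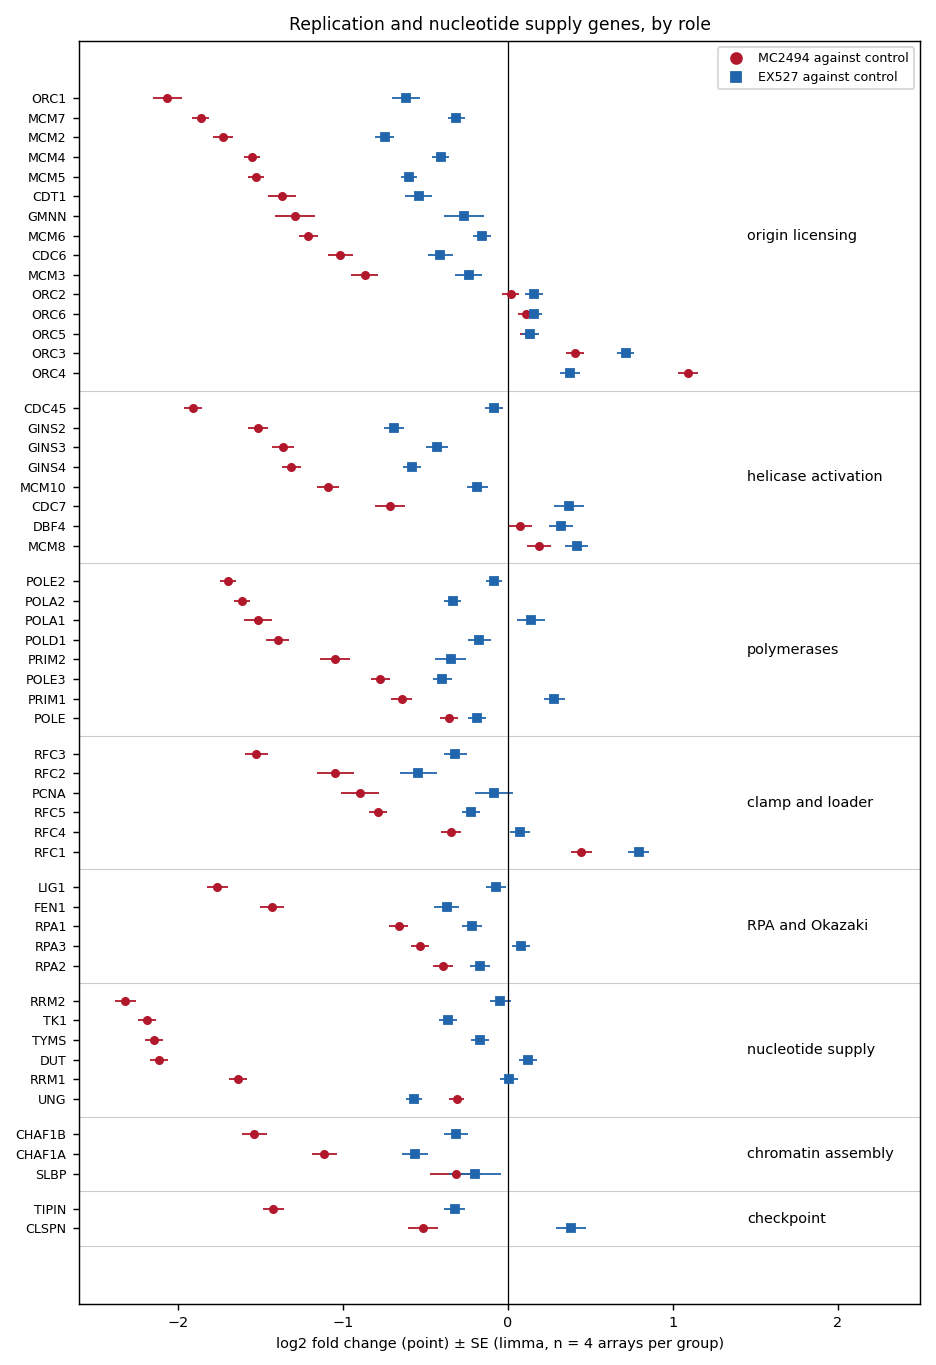
Log2 fold change (x axis) of each of the 53 measured members against control, with MC2494 as red circles and EX527 as blue squares, bars showing the SE from limma with n = 4 arrays per group, and genes ordered by role. The MC2494 points of the nucleotide supply genes other than UNG lie between -2.32 and -1.64, while their EX527 points lie between -0.36 and 0.12, and 5 of the 6 origin recognition subunits lie above 0 with both compounds, of which ORC2, ORC5 and ORC6 turn below 0 in MC2494 with median scaling.

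Set directly against each other, 48 of 53 members were lower in MC2494 than in EX527, 2 were higher and 3 did not pass (limma), where 28.9% of all genes were lower, 33.1% higher and 62% called in either direction. At least 2-fold lower in MC2494 were 21 members, against 3.71% of all genes, and 0 were at least 2-fold higher, against 2.95%. The median difference was -0.90 on the log2 scale, against 0.02 over all genes. Values of the 2 groups did not overlap for 48 members, against 55.5% of all genes. Of all genes called, 53.4% were higher in MC2494, and this share was 35.9% with no scaling between arrays, where 49 members were lower and 1 higher. ORC2, at -0.14, was not called without MC2494 array 1 (-0.14), MC2494 array 2 (-0.11), EX527 array 1 (-0.14) or EX527 array 4 (-0.12). Doses are not given and may differ, so these are differences between the treatments as applied. Both comparisons with control share the same control arrays, so the values of the 2 compounds are given side by side below and no agreement between them is read.

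**Figure D2:**
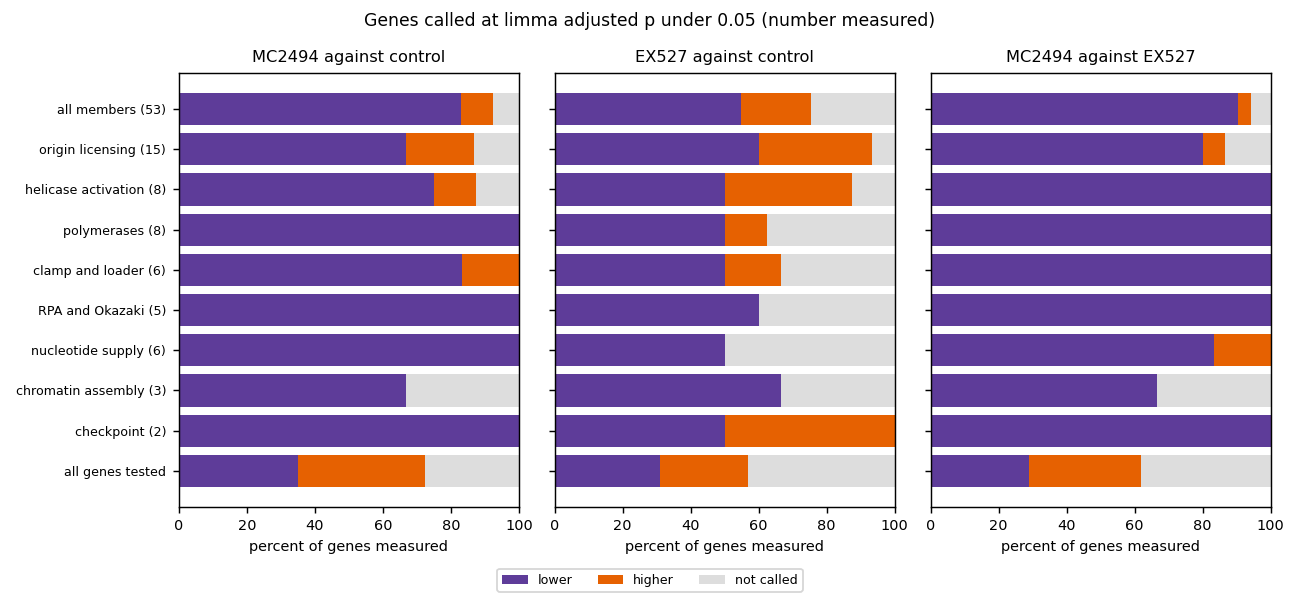
Percent of measured genes (x axis) called lower (purple), higher (orange) or not called (grey) at limma adjusted p under 0.05, for each role with its number measured, for all 53 members and for all genes tested, in the 3 comparisons. All 8 polymerase and primase genes were lower in MC2494 against control, and 4 of the 8 were lower in EX527. Of all genes tested, 35% and 31% were lower in these comparisons.

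Licensing genes split by subunit. All 6 subunits of the MCM2-7 ring, the loaders CDC6 and CDT1, the CDT1 inhibitor GMNN and the origin recognition subunit ORC1 fell with MC2494. That made 10 of 15 lower, where 35% of all genes were lower and 37.5% higher. ORC3, ORC4 and, only with quantile scaling of the brightest probe, ORC5 rose. ORC1, the subunit of the origin recognition complex whose level is known to cycle in human cells, had a normalized log2 signal of 7.00, 6.76, 7.23 and 6.95 in MC2494, 8.51, 8.35, 8.38 and 8.47 in EX527, and 8.97, 8.95, 9.11 and 9.16 in control. The groups stood in 3 separate tiers without overlap, MC2494 lowest and control highest. The log2 change of ORC1 was -2.07 in MC2494 (limma adjusted p = 6.1e-11) and -0.62 in EX527 (adjusted p = 3.9e-05).

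MCM2, a subunit of the ring with a histone-binding tail, read 9.81, 9.63, 9.71 and 9.76 in MC2494, 10.65, 10.65, 10.72 and 10.80 in EX527, and 11.35, 11.46, 11.54 and 11.46 in control. MCM7, another ring subunit, read 12.10, 12.15, 12.12 and 12.07 in MC2494, 13.66, 13.61, 13.72 and 13.65 in EX527, and 13.99, 14.07, 13.88 and 13.96 in control. For both genes the MC2494 arrays lay below the EX527 arrays, and these below the control arrays, with no overlap. MCM2 had the largest fall of any member in EX527, at -0.75 (adjusted p = 2e-07), beside -1.73 in MC2494 (adjusted p = 9.5e-12). MCM7 changed by -1.86 in MC2494 (adjusted p = 1.5e-12) and -0.31 in EX527 (adjusted p = 0.00015). Further MCM7 probes, from a fit over all 13174 kept probes (35.3% lower and 35.4% higher in MC2494 against control, 30% and 24.3% in EX527 against control), read the same direction at other sizes, -2.55 and -0.91 in MC2494 and -0.64 and -0.27 in EX527. The middle probe of these, with the largest fall, had 7.07, 7.32, 7.26 and 7.31 in MC2494, 9.18, 9.22, 9.06 and 9.18 in EX527, and 9.76, 9.81, 9.84 and 9.76 in control. The dimmest had 5.17, 5.35, 5.22 and 5.29 in MC2494, 5.77, 6.06, 5.93 and 5.78 in EX527, and 6.32, 5.95, 6.11 and 6.26 in control, and it was detected on 3 of the 4 MC2494 arrays. MCM4, MCM5, MCM6 and MCM3, the rest of the ring, fell in MC2494 with log2 changes of -1.55, -1.53, -1.21 and -0.87, and in EX527 with -0.41, -0.60, -0.16 and -0.24. CDT1, CDC6 and GMNN changed by -1.37, -1.02 and -1.29 in MC2494. In EX527 CDT1 and CDC6 fell (-0.54 and -0.41), and GMNN, at -0.27, did not pass (adjusted p = 0.072).

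The other origin recognition subunits did not follow ORC1. ORC4, an ATPase-fold subunit, had 6.96, 7.04, 6.95 and 7.00 in MC2494, 6.30, 6.26, 6.29 and 6.24 in EX527, and 5.77, 5.93, 5.82 and 6.07 in control. For ORC3 the arrays read 8.78, 8.81, 8.70 and 8.84 in MC2494, 9.16, 9.06, 9.06 and 9.09 in EX527, and 8.48, 8.36, 8.33 and 8.35 in control. ORC4 stood highest in MC2494 and ORC3 highest in EX527, and neither overlapped with control under either compound. ORC4 rose by 1.09 in MC2494 (adjusted p = 1.2e-09) and 0.37 in EX527 (adjusted p = 0.00015), and ORC3 by 0.41 (adjusted p = 8.8e-06) and 0.71 (adjusted p = 1.2e-07).

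ORC2 had 9.43, 9.34, 9.46 and 9.55 in MC2494, 9.58, 9.55, 9.56 and 9.65 in EX527, and 9.43, 9.40, 9.46 and 9.42 in control. ORC5 had 11.13, 11.15, 11.20 and 11.17 in MC2494, 11.23, 11.10, 11.15 and 11.20 in EX527, and 11.02, 11.13, 10.97 and 11.03 in control. ORC6, the smallest subunit, had 14.48, 14.46, 14.46 and 14.35 in MC2494, 14.50, 14.51, 14.42 and 14.48 in EX527, and 14.38, 14.32, 14.25 and 14.35 in control. The MC2494 values overlapped with control for all 3 genes, and the EX527 values lay above control for ORC2 and ORC6 only. In MC2494 ORC2 (0.02, adjusted p = 0.81) and ORC6 (0.11, adjusted p = 0.068) did not pass, and ORC5 passed at 0.13 (adjusted p = 0.041) with overlapping groups. In EX527 the changes were 0.16, 0.14 and 0.16, with adjusted p of 0.021, 0.037 and 0.019. The direction of these small values depended on the scaling: in MC2494 ORC2, ORC5 and ORC6 were -0.09, -0.12 and -0.04 with median scaling, none of them called, and the EX527 calls of all 3 were lost with median scaling and with no scaling. A further ORC5 probe gave -0.23 in MC2494 and -0.03 in EX527, neither called, from 6.83, 6.69, 6.28 and 6.15 in MC2494, 6.69, 6.75, 6.79 and 6.50 in EX527, and 7.02, 6.75, 6.62 and 6.48 in control. ORC3, ORC4 and ORC1 kept direction and call under both scalings. The size of the ORC4 rise in MC2494 depended on the background step, at 0.69 with no background correction and 0.78 with an offset of 50. Its probe was dim, and ORC4 was not measured with detection p under 0.01 on all arrays.

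**Figure D3:**
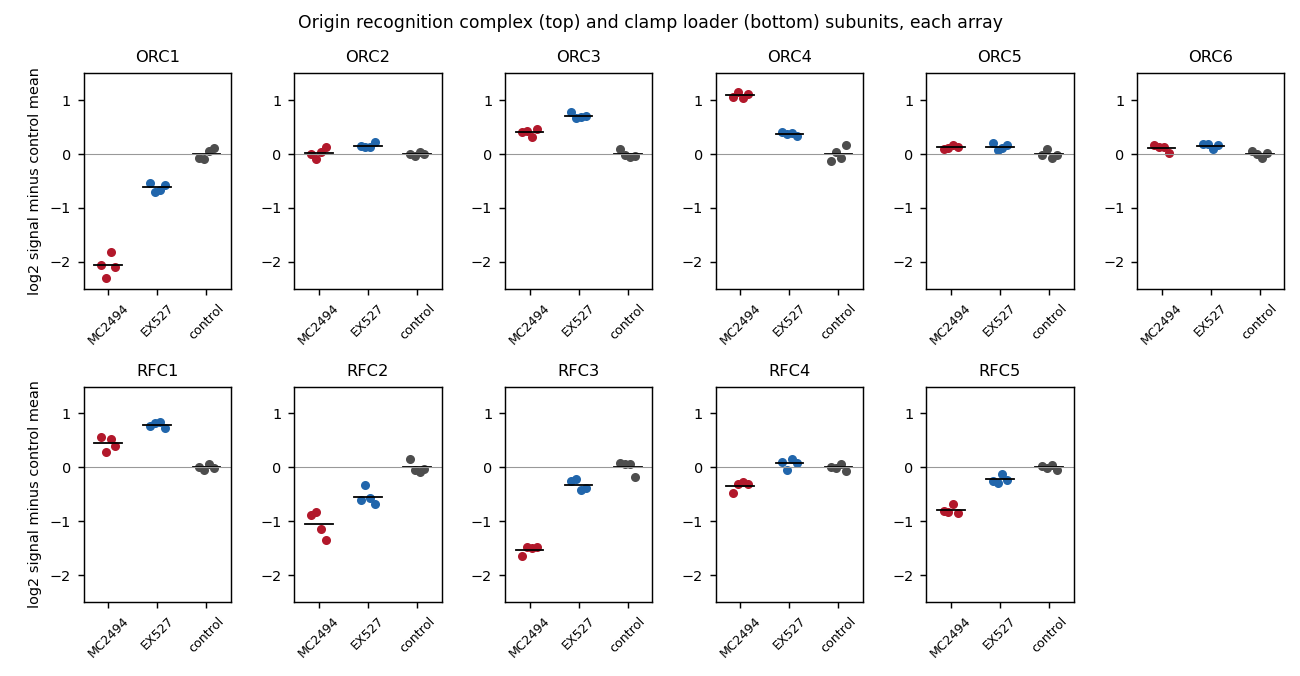
Normalized log2 signal of each array minus the mean of the control arrays (y axis) for the 6 origin recognition subunits (top) and the 5 clamp loader subunits (bottom), with a point per array, a line at each group mean and the groups MC2494, EX527 and control from left to right. In MC2494 the mean of ORC1 lies at -2.07 and that of ORC4 at 1.09, whereas RFC1 lies above 0 with both compounds and RFC2 to RFC5 lie below 0 in MC2494.

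Helicase activation genes came next in order of the pathway. Of 8 measured, 6 fell with MC2494, MCM8 was called higher in a way that its other probe and other scalings did not bear out, and DBF4 did not pass, and with EX527 4 fell and 3 rose, where 35% of all genes were lower and 37.5% higher in MC2494, and 31% and 25.9% in EX527. CDC45, which joins the MCM ring to make the active helicase, had 10.17, 10.09, 10.17 and 10.09 in MC2494, 12.04, 11.93, 11.87 and 11.99 in EX527, and 12.10, 12.03, 11.96 and 12.08 in control. The EX527 and control arrays overlapped and the MC2494 arrays stood apart below them. CDC45 fell by 1.91 in MC2494 (SE 0.054, adjusted p = 1.8e-12), and in EX527 it was -0.08 with a 95% interval from -0.20 to 0.03 (adjusted p = 0.22). With median scaling and with no scaling between arrays, CDC45 passed as lower in EX527. MC2494 against EX527 was -1.83 (adjusted p = 5.5e-12).

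The GINS complex, the partner of CDC45 in the helicase, fell with both compounds in each measured subunit. GINS2 had 10.63, 10.45, 10.58 and 10.66 in MC2494, 11.34, 11.44, 11.41 and 11.44 in EX527, and 12.11, 12.02, 12.06 and 12.19 in control. GINS3 had 8.61, 8.52, 8.82 and 8.77 in MC2494, 9.59, 9.58, 9.66 and 9.64 in EX527, and 10.03, 10.04, 9.99 and 10.12 in control. GINS4 had 7.60, 7.68, 7.73 and 7.73 in MC2494, 8.36, 8.36, 8.41 and 8.52 in EX527, and 8.96, 8.96, 8.98 and 9.10 in control. In each the 3 groups stood apart in the order MC2494, EX527, control. The changes of GINS2, GINS3 and GINS4 were -1.52, -1.36 and -1.31 in MC2494 (adjusted p at or below 2.3e-10) and -0.69, -0.43 and -0.58 in EX527 (adjusted p at or below 7.5e-05). MCM10, a loading factor for the helicase and primase, changed by -1.09 in MC2494 and -0.19 in EX527, where its groups overlapped and the call was lost with no scaling between arrays. A further MCM10 probe gave -1.34 in MC2494 and -0.29 in EX527, there without overlap (adjusted p = 0.026, limma fit over all kept probes).

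CDC7 and its activator DBF4 parted in MC2494, and both rose in EX527. CDC7 was lower in MC2494 (-0.72, adjusted p = 6.7e-06) and higher in EX527 (0.37, adjusted p = 0.0035). DBF4 had 5.25, 5.62, 5.48 and 5.46 in MC2494, 5.64, 5.70, 5.75 and 5.70 in EX527, and 5.34, 5.30, 5.48 and 5.38 in control. The DBF4 values of MC2494 surrounded those of control, at a change of 0.07 (adjusted p = 0.36), and all EX527 values lay above control, at 0.32 (adjusted p = 0.0015). DBF4 was dim, with a control mean of 5.38, which limits the fall that could show in MC2494. MCM8, a helicase of homologous recombination rather than of the origin, had 11.89, 11.71, 11.62 and 11.57 in MC2494, 11.93, 12.00, 11.84 and 11.92 in EX527, and 11.44, 11.62, 11.43 and 11.55 in control. In EX527 MCM8 stood above control with no overlap (0.41, adjusted p = 0.00024), and in MC2494 it passed at 0.19 (adjusted p = 0.032) with overlapping groups. A further MCM8 probe, annotated to the same transcript, gave the opposite sign in MC2494, -0.56 (adjusted p = 6.3e-06, fit over all kept probes), and 0.49 in EX527, from 7.45, 7.52, 7.51 and 7.47 in MC2494, 8.51, 8.59, 8.50 and 8.55 in EX527, and 8.09, 8.24, 7.86 and 7.97 in control. With median scaling the brighter probe was -0.10 in MC2494 and not called, so that no direction of MCM8 held in MC2494.

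Every measured polymerase and primase gene fell with MC2494, where 35% of all genes were lower. POLE2, a subunit of polymerase epsilon, which copies the leading strand, had 8.79, 8.73, 8.82 and 8.78 in MC2494, 10.40, 10.34, 10.46 and 10.38 in EX527, and 10.41, 10.47, 10.54 and 10.49 in control. POLA2, the regulatory subunit of polymerase alpha, had 9.80, 9.68, 9.79 and 9.80 in MC2494, 11.08, 11.03, 11.02 and 11.07 in EX527, and 11.36, 11.32, 11.41 and 11.45 in control. POLA1, its catalytic subunit, had 8.38, 8.18, 8.54 and 8.44 in MC2494, 10.13, 9.95, 10.01 and 10.08 in EX527, and 10.00, 10.04, 9.79 and 9.78 in control. MC2494 stood apart below both other groups for these genes. In EX527 POLA2 lay below control without overlap, while the POLE2 and POLA1 values of EX527 overlapped with control. The changes in MC2494 were -1.70, -1.61 and -1.52 (adjusted p of 2e-12, 3.4e-12 and 9.6e-10). In EX527 POLA2 fell by 0.34 (adjusted p = 5.7e-05), and POLE2 at -0.08 (95% interval from -0.19 to 0.02) and POLA1 at 0.14 (95% interval from -0.04 to 0.32) did not pass. With median scaling POLE2 passed as lower in EX527.

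POLE3, a histone-fold subunit of polymerase epsilon, had 12.83, 12.71, 12.94 and 12.82 in MC2494, 13.21, 13.20, 13.24 and 13.17 in EX527, and 13.54, 13.58, 13.58 and 13.70 in control. PRIM2, the large primase subunit, had 5.46, 5.51, 5.81 and 5.64 in MC2494, 6.20, 6.42, 6.17 and 6.41 in EX527, and 6.58, 6.56, 6.60 and 6.87 in control. Both stood in 3 tiers without overlap, and they had the largest EX527 falls of this role, -0.40 (adjusted p = 4.5e-05) and -0.35 (adjusted p = 0.0059), beside -0.78 and -1.05 in MC2494. PRIM1, the catalytic primase subunit, was lower in MC2494 (-0.64, adjusted p = 4e-07) and higher in EX527 (0.28, adjusted p = 0.0018), and the difference between the compounds was -0.92 (adjusted p = 1.6e-08). POLD1, the catalytic subunit of polymerase delta, which copies the lagging strand, changed by -1.40 in MC2494, and POLE, that of polymerase epsilon, by -0.36. In EX527 POLE fell by 0.19, a call lost with no scaling between arrays, and POLD1, at -0.17, did not pass (adjusted p = 0.051).

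The clamp loader, which opens the PCNA ring onto DNA, split between its large subunit and the rest. RFC1, the large subunit, had 10.68, 10.40, 10.63 and 10.49 in MC2494, 10.87, 10.93, 10.95 and 10.83 in EX527, and 10.11, 10.05, 10.17 and 10.08 in control. All RFC1 values of both compounds lay above control, with EX527 highest. RFC1 rose by 0.44 in MC2494 (adjusted p = 2.1e-05) and by 0.79 in EX527 (adjusted p = 2.2e-07), the largest EX527 rise of any member, and it kept direction and call with median scaling and with no scaling. RFC3 had 7.72, 7.88, 7.87 and 7.88 in MC2494, 9.10, 9.15, 8.94 and 8.98 in EX527, and 9.44, 9.42, 9.42 and 9.18 in control. RFC2 had 9.20, 9.26, 8.94 and 8.73 in MC2494, 9.48, 9.76, 9.52 and 9.39 in EX527, and 10.23, 10.03, 10.00 and 10.05 in control. In both, the 3 groups stood apart with MC2494 lowest. RFC3 changed by -1.53 in MC2494 and -0.32 in EX527, and RFC2 by -1.05 and -0.54, with adjusted p at or below 0.0018. Another RFC3 probe was detected on none of the MC2494 arrays, with 4.64, 4.54, 4.76 and 4.59 in MC2494, 5.37, 5.51, 5.85 and 5.80 in EX527, and 5.89, 6.38, 5.91 and 6.19 in control, and was at least 1.95-fold lower there than in control, taken against the lowest detected signal (measured means of 4.63 and 6.09). RFC5 and RFC4 fell in MC2494 (-0.79 and -0.34), and in EX527 RFC5 fell by 0.22 and RFC4, at 0.07, did not pass.

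PCNA, the sliding clamp, had 11.89, 11.97, 11.59 and 11.37 in MC2494, 12.52, 12.56, 12.56 and 12.42 in EX527, and 12.80, 12.53, 12.65 and 12.42 in control. MC2494 lay below the other groups, which overlapped with each other. PCNA fell by 0.90 in MC2494 (SE 0.12, adjusted p = 7.1e-06) and was -0.09 in EX527 (95% interval from -0.33 to 0.16). With median scaling PCNA passed as lower in EX527. Its probes gave different sizes: a second one, annotated to the same transcript, had 5.96, 5.82, 5.95 and 5.95 in MC2494, 8.07, 8.09, 7.95 and 7.95 in EX527, and 8.35, 8.35, 8.41 and 8.16 in control, a change of -2.39 in MC2494 (adjusted p = 1.4e-12) and -0.30 in EX527 (adjusted p = 0.0014). The third had 6.24, 6.02, 6.25 and 6.17 in MC2494, 6.68, 6.48, 6.56 and 6.53 in EX527, and 6.87, 6.88, 6.67 and 6.80 in control, a change of -0.64 in MC2494 and -0.24 in EX527. All 3 probes were lower in MC2494 with no overlap, by amounts that differed widely from probe to probe.

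**Figure D4:**
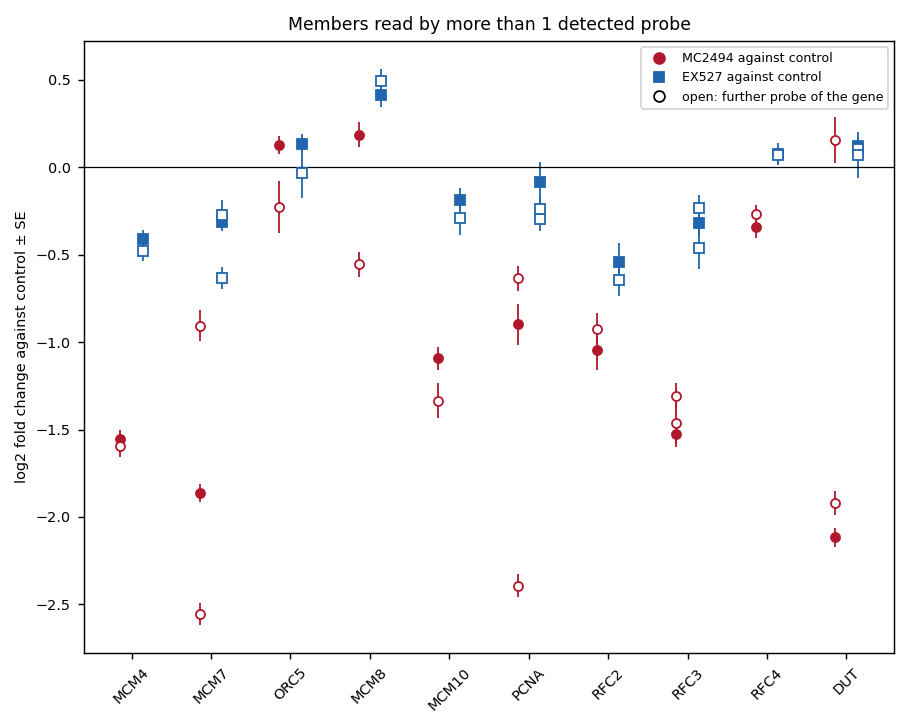
Log2 fold change against control (y axis, with SE) of every detected probe of the 10 members read by more than 1, with MC2494 as red circles and EX527 as blue squares, filled for the probe that stands for the gene and open for the others. The probes of PCNA run from -2.39 to -0.64 and those of DUT from -2.12 to 0.16 in MC2494, while those of MCM4, RFC2 and RFC4 lie within 0.3 of each other. The open RFC3 point at -1.46 in MC2494 comes from a probe undetected there and is a measured value only.

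Single-strand binding and fragment joining genes fell with MC2494 in all 5 cases, where 35% of all genes were lower. LIG1, the ligase that seals Okazaki fragments, had 7.64, 7.82, 7.66 and 7.58 in MC2494, 9.37, 9.26, 9.42 and 9.41 in EX527, and 9.37, 9.41, 9.45 and 9.53 in control. FEN1, the nuclease that trims their flaps, had 10.35, 10.58, 10.64 and 10.58 in MC2494, 11.58, 11.47, 11.59 and 11.74 in EX527, and 11.90, 12.04, 11.96 and 11.98 in control. RPA1, the large subunit of the single-strand binding protein, had 11.34, 11.17, 11.26 and 11.16 in MC2494, 11.71, 11.76, 11.62 and 11.62 in EX527, and 11.92, 11.96, 11.79 and 11.93 in control. MC2494 was lowest in each without overlap. EX527 lay below control without overlap for FEN1 and RPA1 and overlapped with control for LIG1. LIG1, FEN1 and RPA1 changed by -1.76, -1.43 and -0.66 in MC2494 (adjusted p of 1.3e-11, 4e-10 and 1.6e-07). In EX527 FEN1 changed by -0.37 (adjusted p = 6e-04), RPA1 by -0.22 (adjusted p = 0.0064), and LIG1 was -0.07 with a 95% interval from -0.21 to 0.06. The other subunits of the binding protein, RPA3 and RPA2, fell in MC2494 (-0.53 and -0.39). In EX527 RPA2 fell by 0.17 with overlapping groups and RPA3, at 0.08, did not pass.

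With the brightest probe of each gene, nucleotide supply held 4 of the 5 largest falls of the set, which was not so with other probes: the MCM7 and PCNA probes of largest variance, at -2.55 and -2.39, fell further than RRM2, and the mean of the DUT probes was only -1.29. All 6 members were lower in MC2494, 5 of them at least 2-fold, with a median of -2.13. Over all genes tested, 35% were lower and 5.8% at least 2-fold lower. RRM2, the small subunit of ribonucleotide reductase and the one known to be made in S phase, had 8.25, 8.35, 8.27 and 8.29 in MC2494, 10.67, 10.58, 10.52 and 10.49 in EX527, and 10.52, 10.73, 10.68 and 10.52 in control. The EX527 and control values of RRM2 overlapped, and every MC2494 value was more than 2 log2 units below them. The change was -2.32 in MC2494, or 5-fold lower (SE 0.062, adjusted p = 1.1e-12), and -0.05 in EX527 (95% interval from -0.18 to 0.09, adjusted p = 0.55). With median scaling RRM2 passed as lower in EX527. RRM1, the large subunit, fell by 1.64 in MC2494 (adjusted p = 6.7e-12) and was 0.01 in EX527, with a 95% interval from -0.11 to 0.13. That EX527 value depended on the scaling, being -0.21 and called with median scaling (adjusted p = 0.0047).

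TK1, the cytosolic thymidine kinase of the salvage route, had 7.94, 8.14, 8.05 and 8.06 in MC2494, 9.89, 9.90, 9.82 and 9.89 in EX527, and 10.21, 10.18, 10.28 and 10.29 in control. TYMS, which makes thymidylate from deoxyuridylate, had 10.81, 11.02, 10.98 and 10.96 in MC2494, 12.93, 12.91, 12.91 and 12.93 in EX527, and 13.16, 13.06, 13.13 and 13.00 in control. For both genes the EX527 arrays lay just below control and the MC2494 arrays far below, with no overlap. TK1 changed by -2.19 in MC2494 (adjusted p = 6e-13) and -0.36 in EX527 (adjusted p = 6.5e-05), and TYMS by -2.15 (adjusted p = 8.3e-13) and -0.17 (adjusted p = 0.02). The compounds differed by -1.83 for TK1 and -1.98 for TYMS, MC2494 being lower (adjusted p of 5.5e-12 and 4.5e-12).

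DUT, which breaks down dUTP so that uracil stays out of DNA, had 9.81, 9.82, 9.94 and 9.99 in MC2494, 12.13, 12.07, 12.17 and 12.14 in EX527, and 11.99, 12.02, 12.04 and 11.98 in control. The MC2494 arrays stood below the rest, and the EX527 arrays lay just above control without overlap. DUT fell by 2.12 in MC2494 (adjusted p = 6e-13), and in EX527 it was 0.12 and did not pass (adjusted p = 0.065). The difference of MC2494 against EX527, -2.24, was the second largest of the set after RRM2 at -2.27. A second DUT probe changed by -1.92 in MC2494. The third, annotated to the same transcript as the second, had 8.45, 8.46, 8.14 and 8.01 in MC2494, 8.23, 8.41, 8.02 and 8.06 in EX527, and 8.31, 8.29, 8.01 and 7.82 in control. Its groups overlapped throughout, at 0.16 in MC2494 (adjusted p = 0.3) and 0.07 in EX527.

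UNG, the glycosylase that removes uracil from DNA, had 10.04, 10.11, 10.19 and 10.12 in MC2494, 9.84, 9.85, 9.86 and 9.88 in EX527, and 10.41, 10.47, 10.44 and 10.39 in control. EX527 was lowest here, as for no other measured member, with MC2494 between and control highest, without overlap. UNG changed by -0.31 in MC2494 (adjusted p = 3.2e-05) and -0.57 in EX527 (adjusted p = 2.6e-07). MC2494 against EX527 was 0.26 (adjusted p = 0.00026), a call that was lost with no scaling between arrays, and ORC4 (0.72) was the only other measured member higher in MC2494 than in EX527.

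**Figure D5:**
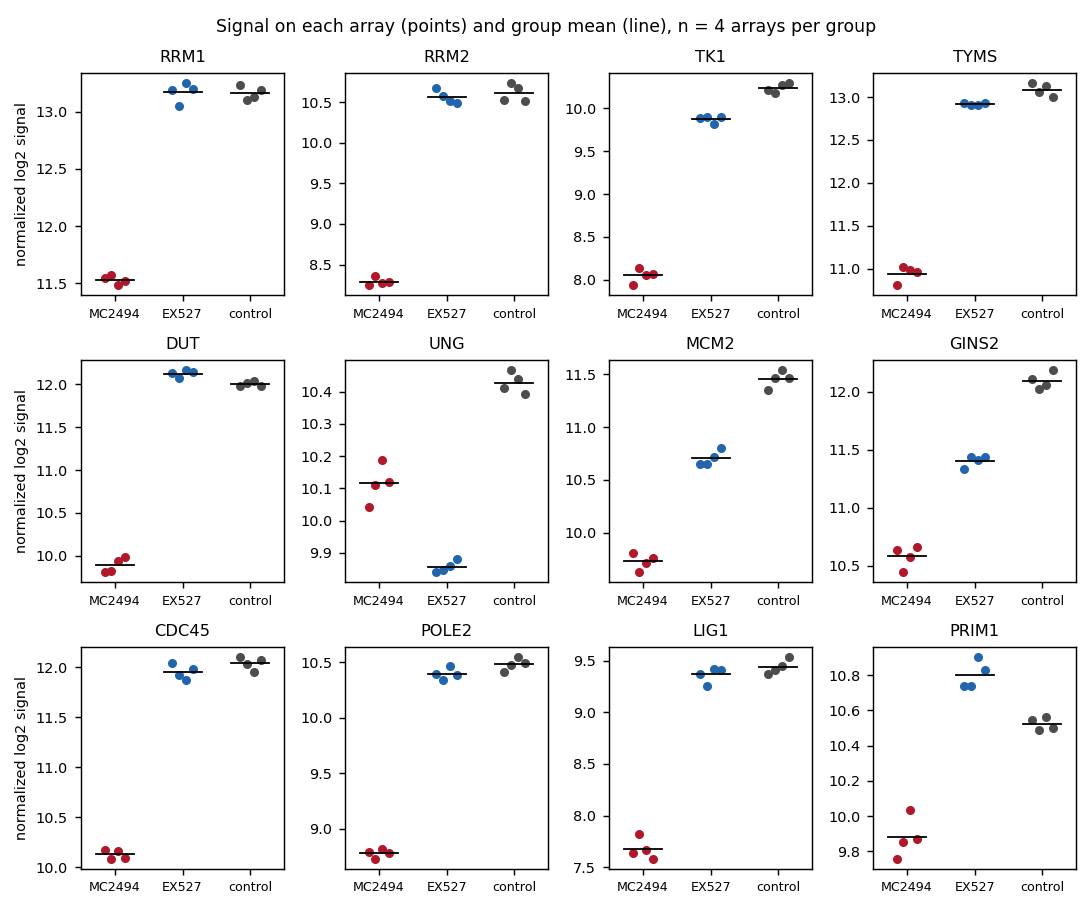
Normalized log2 signal (y axis, with its own range in each panel) on each array as points, with a line at each group mean, for 12 members in MC2494, EX527 and control from left to right. In RRM1, RRM2, CDC45, POLE2 and LIG1 the EX527 points overlap with control while the MC2494 means differ from control by -2.32 to -1.64, and in MCM2 and GINS2 the EX527 points lie between the other groups.

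Chromatin assembly and checkpoint members closed the set. CHAF1B, a subunit of the chromatin assembly factor that places histones behind the fork, had 8.33, 8.45, 8.67 and 8.45 in MC2494, 9.73, 9.76, 9.53 and 9.77 in EX527, and 10.07, 10.01, 9.95 and 10.03 in control. CHAF1A, its large subunit, had 7.61, 7.52, 7.65 and 7.68 in MC2494, 8.30, 8.31, 8.00 and 8.05 in EX527, and 8.70, 8.84, 8.66 and 8.71 in control. SLBP, which binds the stem-loop of histone messages, had 9.96, 10.19, 9.56 and 9.55 in MC2494, 9.82, 10.23, 10.02 and 9.67 in EX527, and 10.39, 10.19, 9.84 and 10.11 in control. Both assembly factor genes stood in 3 tiers with MC2494 lowest, while the SLBP groups overlapped throughout. CHAF1B changed by -1.54 in MC2494 and -0.32 in EX527, and CHAF1A by -1.11 and -0.56 (adjusted p at or below 0.0025). SLBP was -0.32 in MC2494 (adjusted p = 0.084) and -0.20 in EX527 (adjusted p = 0.3), with an SE of 0.16, the widest of the members measured, and in MC2494 it passed with median scaling (-0.46, adjusted p = 0.014).

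TIPIN, which with its partner TIMELESS steadies the fork, had 7.81, 7.96, 7.91 and 7.90 in MC2494, 8.88, 9.02, 9.07 and 9.02 in EX527, and 9.35, 9.44, 9.20 and 9.28 in control. CLSPN, the claspin adaptor of the checkpoint kinase CHEK1, had 5.37, 5.53, 5.51 and 5.38 in MC2494, 6.58, 6.42, 6.23 and 6.15 in EX527, and 6.08, 5.79, 6.05 and 5.93 in control. TIPIN fell in 3 tiers, whereas the CLSPN values of EX527 all lay above control and those of MC2494 all below. TIPIN changed by -1.42 in MC2494 and -0.32 in EX527 (adjusted p of 1.1e-10 and 0.00064), and CLSPN by -0.51 (adjusted p = 0.00016) and 0.38 (adjusted p = 0.003). CDC7, PRIM1 and CLSPN were each called lower with MC2494 and higher with EX527. In each the difference between the compounds passed, at -1.09, -0.92 and -0.90 (adjusted p of 1.5e-07, 1.6e-08 and 1.2e-06). CLSPN was dim, and its MC2494 change, still called, was -0.27 with no background correction and -0.31 with an offset of 50.

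Other genes of the pathway were read from 3 further lists, also chosen with earlier results of these data known. Of 21 measured replisome and origin factors outside the set, 14 fell and 2 rose with MC2494, and 5 fell and 9 rose with EX527. Over all genes tested 35% were lower and 37.5% higher in MC2494, and 31% and 25.9% in EX527. With EX527 the falls among these factors did not exceed that share, and the rises did. TICRR, which brings CDC45 to origins, changed by -1.76 in MC2494, the alternative clamp loader subunit CHTF18 by -1.67 and the helicase RECQL4 by -1.62, and none of the 3 passed in EX527 (-0.12, -0.05 and 0.02). In EX527 the topoisomerase TOP2A rose by 0.98, the polymerase alpha partner WDHD1 by 0.87 and FBXO5, an inhibitor of the anaphase-promoting complex, by 0.85. In MC2494 TOP2A fell by 0.75, while WDHD1 (-0.14) and FBXO5 (-0.15, detected on 2 of 4 MC2494 and 3 of 4 control arrays) did not pass.

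Of 18 measured genes in the list of other nucleotide and histone suppliers, 10 fell and 7 rose with MC2494, and 6 fell and 5 rose with EX527. Set beside the same shares over all genes (35% lower and 37.5% higher in MC2494, 31% and 25.9% in EX527), the rises with MC2494 and both counts with EX527 were near the background. The histone chaperone ASF1B changed by -1.83 in MC2494 and -0.39 in EX527, whereas its paralog ASF1A rose by 1.04 and 0.77. The mitochondrial thymidine kinase TK2 rose by 1.11 in MC2494, against the fall of the cytosolic TK1, and in EX527 TK2 did not pass (0.17). RRM2B, the p53-inducible counterpart of RRM2, rose by 0.79 in MC2494 and 0.94 in EX527 (adjusted p of 9e-04 and 0.00039). The nucleoside diphosphate kinase NME1 changed by -1.08 in MC2494 and -0.33 in EX527, and DCTPP1, which clears dCTP, by -0.82 and -0.77.

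Among 20 measured E2F factors, pocket proteins and S phase kinases, 13 fell and 2 rose with MC2494, and 7 fell and 3 rose with EX527. Against 31% lower and 25.9% higher over all genes in EX527, the falls with EX527 were near the background and the rises below it, while 35% of all genes were lower in MC2494. E2F8, a repressor E2F that is itself made in S phase, fell by 1.76 in MC2494 and was 0.02 in EX527 (not called). Cyclin E1, CCNE1, changed by -1.58 in MC2494 and -0.60 in EX527, and the activator E2F2 by -1.48 and -0.17. For the phosphatase CDC25A the changes were -1.42 and -0.76. The retinoblastoma gene RB1 rose by 0.58 in MC2494 and 0.65 in EX527, and its relative RBL1 fell by 0.19 in MC2494 and rose by 0.66 in EX527.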

How the data were processed

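Total RNA of U937 cells was labelled and hybridised to Illumina bead arrays, 12 in all, and the labels' treatment field gave the groups. The deposited files hold probe intensity, not normalized, with a detection p-value per probe and array, per the file headers. A deposited log2 table holds the authors' normalized values, whose 12 columns share the same sorted values within 0.001, as quantile normalization gives, and the submitters' processing notes name limma. Scanner software and background steps: not given in the sources used here.

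With limma 3.58.1 in R 4.3.3, background inferred from detection p-values was removed (normexp), an offset of 16 added, and arrays quantile normalized and taken to log2. Probes detected at p under 0.05 on at least 4 of 12 arrays were kept (13174 of 24526). Gene names came from the platform annotation: 21834 probes had 1 symbol, 0 several and 2692 none, and the symbols of 21813 probes matched RefSeq. The brightest kept probe stood for a gene. One mean per group was fitted over all 12 arrays (lmFit, eBayes), with Benjamini-Hochberg adjustment over 9956 genes and a threshold of 0.05. Further probes of a gene come from a separate fit over all kept probes. The script was tested on simulated data.

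Members and lists were chosen with earlier results of these data known. Values on every array are given, per role, for the 3 members with the largest change in MC2494, the 2 with the largest in EX527, and members that went against most of their role or whose probes disagreed in sign or by over 1 on the log2 scale; of each list of other genes, the 3 with the largest change in each comparison with control are named. Precision is limited by the number of arrays, which carry no read depth. Alternatives changed the background step, scaling, filter, probe choice, variance model, samples fitted and threshold. No column of per-sample values was left unused.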

Additional observations from a re-analysis of the deposited data

Results flagged for a closer look

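The 12 values below come from single arrays that stood away from the other 3 of their group by more than Dixon's 95% critical value for 4 samples, given as the gap divided by the group's range. Of 159 groups tested (53 members in 3 groups), 12 passed, and chance gives about 7.95. In MC2494, CDT1 on array 1 read 9.82 against 9.49 to 9.53 on the others (ratio 0.871). POLA2 on array 2 read 9.68 against 9.79 to 9.80 on the others (ratio 0.911). RFC3 on array 1 read 7.72 against 7.87 to 7.88 on the others (ratio 0.953). RFC4 on array 1 read 10.61 against 10.78 to 10.81 on the others (ratio 0.843). In EX527, MCM4 on array 3 read 12.33 against 12.41 to 12.42 on the others (ratio 0.839). TK1 on array 3 read 9.82 against 9.89 to 9.90 on the others (ratio 0.908). CHAF1B on array 3 read 9.53 against 9.73 to 9.77 on the others (ratio 0.849). In control, MCM3 on array 3 read 14.53 against 14.21 to 14.26 on the others (ratio 0.852). MCM6 on array 2 read 14.12 against 14.18 on the others (ratio 1). GINS4 on array 4 read 9.10 against 8.96 to 8.98 on the others (ratio 0.861). PRIM2 on array 4 read 6.87 against 6.56 to 6.60 on the others (ratio 0.89). RFC3 on array 4 read 9.18 against 9.42 to 9.44 on the others (ratio 0.92).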

How the results depend on the processing

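Every alternative was computed for all measured members. Between 41 and 45 members were lower in MC2494 against control over the 14 alternatives other than leaving out an array, and 44 to 45 with each array left out. In EX527 against control 24 to 36 were lower (25 to 31 with an array left out) and 8 to 12 higher (9 to 11), and in MC2494 against EX527 44 to 49 were lower (47 to 48). The median log2 change ran from -1.30 to -1.02, -0.32 to -0.18 and -1.03 to -0.80. The count of members higher in MC2494 against control, 5, was 3 with median scaling, with no scaling, with the probe of largest variance, with the mean of all kept probes, with only the 2 groups fitted and with an adjusted p under 0.01, and 3 to 5 with an array left out (3 without MC2494 array 2, control array 1 or control array 3). The count higher in MC2494 against EX527, 2, was 1 with no scaling and with detection p under 0.01 on all arrays. Signs turned in MC2494 against control for ORC5 (-0.12 median scaling, -0.15 no scaling, -0.23 largest variance, -0.051 mean of probes) and MCM8 (-0.10, -0.13, -0.56 and -0.18), for the uncalled ORC2 (-0.092 median scaling, -0.12 no scaling) and ORC6 (-0.037 and -0.068), and in EX527 against control for ORC5 (-0.012 median scaling, -0.031 largest variance) and RRM1 (-0.21 median scaling, -0.14 no scaling). Among uncalled EX527 values, RFC4 (-0.074 and -0.0026), RPA3 (-0.11 and -0.042) and, with median scaling, DUT (-0.065) turned as well, and leaving out single arrays turned only uncalled values of ORC2, RRM1 and ORC5 that lay near 0. The cause was not tested. Arrays of the same number correlated at -0.043 to 0.185 in their deviations from group means, against -0.208 to 0.261 for other numbers, so the numbers were not taken to pair the arrays. With the replicate block, 45 members were lower and 4 higher in MC2494 against control, 30 and 10 in EX527 against control, and 48 and 2 in MC2494 against EX527. Probes near background limit what dim members can show, as for the RFC3 probe that was undetected in MC2494.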
